A study of Homo sapiens with 2 samples.

Results

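Many human protein-coding genes can be transcribed from more than one promoter. Accessible chromatin at promoters inside genes was examined in H1 human embryonic stem cells. A region was counted as lying at an internal promoter when its summit, the point of highest signal, fell within 500 bp of the annotated start of a protein-coding transcript, and when that start lay more than 5 kb downstream of the gene's outermost 5′ end and more than 1 kb from the 5′ end of any other gene. In all, 3046 of 160327 distinct regions met these conditions, which is 1.90% of the list. They belonged to 2301 genes, and 6 of the regions lay near internal starts of 2 genes at once.

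The study measured accessibility by ATAC-seq, in which the transposase Tn5 inserts sequencing adapters into open DNA. The samples were 2 libraries of H1, an established pluripotent line, with no treatment named in the labels; the cells came from frozen stocks, were cleared of dead-cell DNA with DNase I and on Ficoll after thawing, and were tagmented by the Omni-ATAC protocol. Both libraries form 1 group and share 1 deposited list of 236878 summits, so no value belongs to a single library and no difference could be set against replicate spread; the labels do not say whether the libraries came from separate cultures. The list holds no read counts and the depth is therefore unknown. Of 10 pluripotency genes checked against the cell label, 9 had a region at the canonical start (NANOG 9.48 and ZFP42 11.2), and POU5F1 had one only at its outermost end (5.54). Here and below, each region was placed by its strongest summit. A start near only a weaker summit of a region was therefore counted as without a region. Of 7 fibroblast genes, 5 had one at the canonical or outermost start (PDGFRB 6.88, COL1A1 and COL3A1 without a region), so accessible starts alone did not separate the 2 marker lists.

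An alternative promoter gives a transcript a different beginning. Where it lies upstream of the start codon it changes only the untranslated leader, and where it lies further inside the gene it can remove the front part of the protein or give it another one. CDKN2A, DMD, RUNX1 and TP63 are textbook cases in which the promoters of 1 gene serve different tissues or yield proteins of different function. Most vertebrate promoters of widely used genes lie in CpG islands, stretches in which the dinucleotide CpG has not been depleted, whereas tissue-restricted promoters are more often poor in CpG.

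Sequences around the summits of 8 members are given first, since they show how widely the members differ in CpG content. The 8 were chosen after the values had been seen, to include CpG-rich and CpG-poor starts and genes described further on. Each is 151 bases of hg38, centred on the summit and read 5′ to 3′ along the strand of the gene, with every CpG in capitals.
DNMT3A-203 (chr2:25252405-25252555, minus strand): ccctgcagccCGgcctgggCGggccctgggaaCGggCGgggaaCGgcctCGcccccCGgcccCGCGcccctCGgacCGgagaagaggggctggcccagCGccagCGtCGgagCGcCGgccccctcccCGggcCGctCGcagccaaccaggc
CDKN2A-208 (chr9:21974864-21975014, minus strand): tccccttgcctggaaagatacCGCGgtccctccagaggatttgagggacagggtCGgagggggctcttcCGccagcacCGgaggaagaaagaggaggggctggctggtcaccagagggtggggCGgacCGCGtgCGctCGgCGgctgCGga
DMD-246 (chrX:31266902-31267052, minus strand): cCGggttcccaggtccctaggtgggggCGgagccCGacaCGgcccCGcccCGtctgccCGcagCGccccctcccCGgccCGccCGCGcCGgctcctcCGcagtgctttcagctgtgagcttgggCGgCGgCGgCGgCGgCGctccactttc
ESRRB-208 (chr14:76376016-76376166, plus strand): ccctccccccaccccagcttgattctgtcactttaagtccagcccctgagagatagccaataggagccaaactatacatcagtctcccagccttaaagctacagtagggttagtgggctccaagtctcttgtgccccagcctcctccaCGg
DMD-205 (chrX:32155164-32155314, minus strand): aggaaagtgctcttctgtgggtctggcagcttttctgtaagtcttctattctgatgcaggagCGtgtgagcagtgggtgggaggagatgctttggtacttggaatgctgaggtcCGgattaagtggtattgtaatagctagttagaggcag
ARHGAP32-202 (chr11:129024125-129024275, minus strand): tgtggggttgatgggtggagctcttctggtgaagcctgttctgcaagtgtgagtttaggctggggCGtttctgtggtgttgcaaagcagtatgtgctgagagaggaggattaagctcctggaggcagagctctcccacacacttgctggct
DISP1-201 (chr1:222928339-222928489, plus strand): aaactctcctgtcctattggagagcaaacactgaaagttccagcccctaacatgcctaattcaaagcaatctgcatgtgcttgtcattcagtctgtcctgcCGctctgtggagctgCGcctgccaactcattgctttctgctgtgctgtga
SCN2A-201 (chr2:165293834-165293984, plus strand): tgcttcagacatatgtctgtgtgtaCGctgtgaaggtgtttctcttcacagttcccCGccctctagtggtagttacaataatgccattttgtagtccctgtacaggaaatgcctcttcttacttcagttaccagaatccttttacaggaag
Counted from the first base of each window, the annotated start was base 82 in DMD-246, base 149 in CDKN2A-208, base 122 in ESRRB-208, base 83 in ARHGAP32-202 and base 86 in DISP1-201, and it lay outside the window for the others. The windows of DMD-246 and DNMT3A-203 held 20 and 19 CpG, against 1 in ARHGAP32-202 and in ESRRB-208 and 2 in DISP1-201, SCN2A-201 and DMD-205. Over the wider 501 bp around the summit, observed over expected CpG was 0.579 at ESRRB-208, against 0.122 at ARHGAP32-202. A GC box (GGGCGG, read on both strands), the site known for the factors of the SP family, was present in DNMT3A-203, CDKN2A-208, DMD-246 and SCN2A-201. A CCAAT box, known as the site of the factor NF-Y, was present in ESRRB-208 and DISP1-201. The window of SCN2A-201 also held a site of the factor CTCF, which overlaps its GC box. Sites of the TEAD and OTX factors were present in DMD-205, and an OTX site in ARHGAP32-202.

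Internal starts were accessible more often than the positions around them, and how often differed with the kind of transcript that began there. The annotation gave 22074 transcripts with an eligible internal start, which merged into 13482 internal starts when starts of 1 gene within 500 bp were joined. Of these, 2983 had a region within 500 bp, which is 22.1% (95% exact Clopper-Pearson interval 21.4 to 22.8%). A merged start counted as accessible when any of its transcript starts had a region within 500 bp. Its window could therefore be wider than that of a flanking position or an outermost end, which were each 1 position. Positions 3 kb to either side and more than 1 kb from any annotated start had a region in 4.47% of 21746 cases. The outermost 5′ ends of all 20033 protein-coding genes had one in 62.8%. All intervals here cover counting error only, and starts of 1 gene are not independent.

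The Ensembl canonical transcript, which the annotation picks as the representative of a gene, began at 1733 of the internal starts. At these, 1160 were accessible, or 66.9% (64.7 to 69.1%), against 3.62% at their flanking positions. At starts of other transcripts with an annotated complete 5′ end, 1501 of 6610 were accessible, or 22.7% (21.7 to 23.7%), against 5.10% nearby. At starts of transcripts tagged as incomplete at the 5′ end, whose annotated first base need not be a true start, 322 of 5139 were accessible, or 6.27% (5.62 to 6.96%), against 3.91% nearby. The interval of the canonical internal starts lay above that of all outermost 5′ ends (62.2 to 63.5%). It overlapped that of the outermost ends of genes with an internal start, which had a region in 64.8% (63.6 to 65.9%). Merged starts could have the wider window in both comparisons, and shares at equal windows were not computed. The intervals of the 3 kinds of internal start did not overlap one another. Among the 3046 regions, 1160 (38.1%) lay at a canonical start, 1557 (51.1%) at another complete start and 329 (10.8%) at incomplete starts only.

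**Figure D1:**
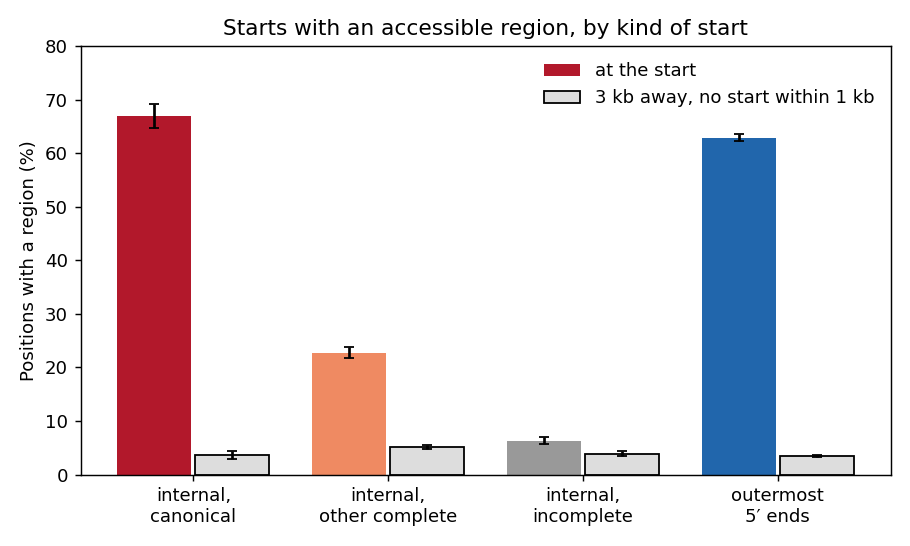
Share of annotated starts with an accessible region within 500 bp (coloured bars, %) and share of positions 3 kb away with one (grey bars, %), for the 3 kinds of internal start and for outermost 5′ ends; lines are 95% exact intervals. Canonical internal starts stand at 66.9%, other complete ones at 22.7% and incomplete ones at 6.27%, beside 62.8% for outermost 5′ ends.

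These shares depended on which transcripts counted. With the transcripts of the annotation's basic set alone, 35.9% of internal starts were accessible, and with transcripts of every type of a protein-coding gene, 12.5%. Counting every type gave 4911 regions, of which 23.6% lay at a canonical start.

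At canonical and other complete starts, summits gathered just upstream of the start. The median summit lay 38 bp upstream at canonical and 32 bp upstream at other complete starts, and at incomplete starts the interval of the median (15 bp upstream) spanned the start itself. Within 200 bp of the start lay 86.8% of the members' summits at canonical starts, 70.5% at other complete starts and 46.8% (41.3 to 52.4%) at incomplete starts. The rule admits no summit beyond 500 bp, so these values describe members only. The rates below count the strongest summit of every region around all starts of a kind, and leave out weaker summits of the same region. In the 100 bp before the start there were 338 summits per 1000 canonical internal starts, 68.5 per 1000 other complete starts and 9.73 per 1000 incomplete starts, and 276 per 1000 outermost 5′ ends. At the edge of the 500 bp window the rate had fallen to 18.5 per 1000 canonical starts just inside it upstream and 16.2 just outside it. At other complete starts it was 9.68 just inside and 11.3 just outside, and 15.1 from 800 to 700 bp upstream. At incomplete starts it was 6.03 just inside and 4.67 just outside, near their 9.73 before the start. The plot of summits around starts shows the same order of heights.

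**Figure D2:**
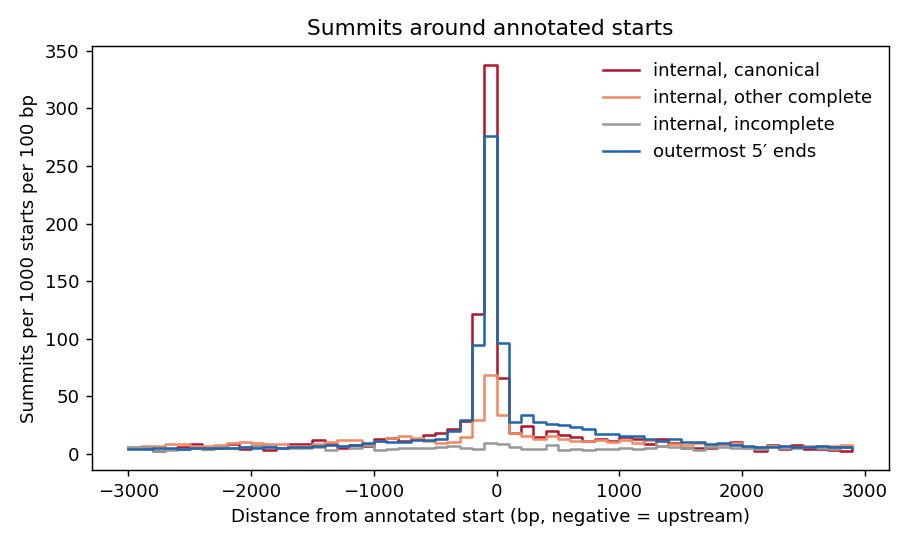
Summits per 1000 annotated starts in 100 bp steps (vertical axis) by distance from the start in bp, negative values upstream (horizontal axis), for 3 kinds of internal start and for outermost 5′ ends. Each region is represented by its strongest summit only. Each line is 1 kind of start; the step just before the start reaches 338 for canonical internal starts, 68.5 for other complete starts and 9.73 for incomplete starts, against 276 for outermost 5′ ends.

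In fold, width and number of summits, members at canonical starts lay close to regions at outermost 5′ ends, and the other members lay closer to intronic regions. The deposited fold, the enrichment of signal at the summit as the authors' peak caller gave it, had a median of 9.33 (8.89 to 9.77) at canonical internal starts, 5.90 (5.67 to 6.15) at other complete starts and 5.43 (5.10 to 5.87) at incomplete starts, against 9.41 (9.30 to 9.51) for 11532 regions at outermost 5′ ends and 5.11 (5.07 to 5.11) for 54963 intronic regions far from any start. Median widths followed, at 1041.5, 594 and 471 bp for the 3 kinds of member, against 1059 bp at outermost 5′ ends and 410 bp in introns. More than 1 summit was listed in 80.3% of regions at canonical internal starts, 47.5% at other complete and 31.0% at incomplete starts, against 80.1% at outermost 5′ ends and 22.7% in introns. Over all 3046 members the median fold was 6.99 and the width 737 bp, with 10th and 90th percentiles of 3.31 and 13.7 for fold.

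CpG content differed between the kinds of member. Observed over expected CpG in the 501 bp around the summit had a median of 0.777 at canonical internal starts, 0.348 at other complete starts and 0.317 at incomplete starts, against 0.811 at outermost 5′ ends and 0.182 in distant introns. A ratio of 0.6 or more was found at 74.9% of canonical, 28.3% of other complete and 14.9% of incomplete members, against 83.7% of outermost and 1.54% of intronic regions. Within the other complete members, the 441 with such a ratio had a median fold of 6.81 and width of 975 bp, and the 1116 below it 5.55 and 512 bp.

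Internal starts with more CpG were accessible more often. When all internal starts were ranked by CpG ratio around the start and divided into quintiles, 10.2% of the lowest quintile and 57.3% of the highest were accessible, with 12.2%, 14.8% and 16.1% between. In the highest quintile the shares were 89.8% for canonical, 46.9% for other complete and 14.4% for incomplete starts. In the lowest they were 19.6%, 13.0% and 4.28%. The kinds of start thus kept their order in each quintile, although the canonical and other complete intervals overlapped in the 2 lowest quintiles. The kinds were not at equal CpG within the highest quintile. There the median ratio was 0.830 at canonical, 0.649 at other complete and 0.557 at incomplete starts.

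**Figure D3:**
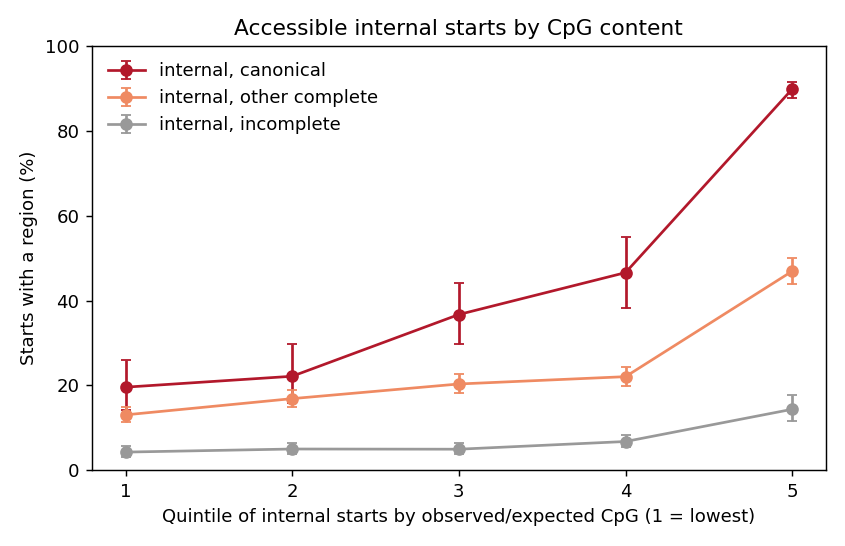
Share of internal starts with an accessible region (vertical axis, %) in quintiles of all internal starts ranked by observed over expected CpG in 501 bp around the start (horizontal axis, 1 lowest), for 3 kinds of start with 95% exact intervals. The highest quintile reaches 89.8% for canonical, 46.9% for other complete and 14.4% for incomplete starts.

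Starts used by several annotated transcripts were accessible more often. Among other complete starts the share was 18.8% with 1 transcript, 28.0% with 2 and 40.6% with 3 or more, and among canonical internal starts it was 50.1%, 63.4% and 78.8%. A merged start of several transcripts could have a wider window, which by itself raises the share. How much of the rise this gave was not tested. The share also differed with distance into the gene for the other complete starts, of which 16.7% (14.4 to 19.04%) were accessible 5 to 10 kb downstream of the outermost 5′ end and 34.5% (31.1 to 38.1%) beyond 200 kb; their median CpG ratio was 0.252 and 0.278 in these bins. At incomplete starts the corresponding shares were 7.12% and 8.44%, with overlapping intervals. Members lay a median of 36.1 kb downstream of the outermost end, with 10th and 90th percentiles of 8.16 and 248 kb.

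Several short sequence motifs known from promoters, though not the TATA box, were more frequent at members than in introns. Of 16 motifs searched on both strands, 7 were more frequent at members than in distant intronic regions, 8 were less frequent and 1 had overlapping intervals. The median share of G and C bases in the 501 bp around the summit was 58.9% at members and 43.7% in those intronic regions. Whether base composition gave the motif differences was not tested. The GC box was found at 47.0% of canonical, 23.4% of other complete and 20.1% of incomplete members, against 49.8% of outermost and 4.35% of intronic regions. The CCAAT box was found at 21.7% of canonical, 14.7% of other complete and 12.2% of incomplete members, against 23.9% of outermost and 12.2% of intronic regions. CCGGAAG, a site of ETS factors, was at 4.40% of canonical and 1.54% of other complete members, against 8.47% of outermost and 0.486% of intronic regions. TGACGTCA, the cyclic AMP response element, was at 1.47% of canonical and 0.514% of other complete members, against 1.61% of outermost and 0.0691% of intronic regions. GCCNNNGGC, a site of the TFAP2 factors, was at 12.5% of canonical and 10.5% of other complete members, against 15.2% of outermost and 3.54% of intronic regions. The E box CACGTG, at 2.43% of all members and 1.14% of intronic regions, and the NRF1 site, at 0.197% and 0.00910%, completed the 7.

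The motifs that were less frequent at members include the TATA box and sites of pluripotency factors. TATAAA was at 1.38% of all members, against 2.96% of intronic regions. ACAATGG, a SOX site, was at 0.788% of all members, against 2.64% of intronic regions. ATGCAAAT, the octamer bound by POU5F1, was at 1.58%, against 2.56%. GGAATG, a site of the TEAD factors, was at 6.30%, against 12.6%. TGANTCA, the AP-1 site, was at 3.18%, against 4.93%. Among the other complete members with a CpG ratio under 0.6, the AP-1 and octamer shares were 5.65% and 2.24%, against 4.99% and 2.59% in intronic regions under the same limit, with overlapping intervals, while the SOX share was 0.986%, against 2.67%, and the TEAD share 9.95%, against 12.8%. Under the same limit the GC box (12.2%, against 3.86%), the TFAP2 site (6.72%, against 3.40%), the cyclic AMP response element (0.538%, against 0.0665%) and the CCAAT box (14.7%, 12.7 to 16.9%, against 12.3%, 12.0 to 12.5%) were still more frequent at other complete members. The intervals of the ETS site (0.717%, against 0.458%), the E box (1.52%, against 1.10%) and the NRF1 site overlapped there. The limit of 0.6 caps the CpG ratio and does not make it, or the share of G and C bases, equal between members and introns.

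The CTCF site was most frequent at incomplete starts. It was found at 11.2% (8.04 to 15.2%) of members at incomplete starts, 1.55% at canonical starts and 2.63% at other complete starts, against 5.39% of intronic and 2.04% of outermost regions. CTCF is known for binding at insulators and the anchors of chromatin loops. Incomplete members were also placed in an exon of the canonical transcript more often than other complete members (28.6%, against 4.43%).

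**Figure D4:**
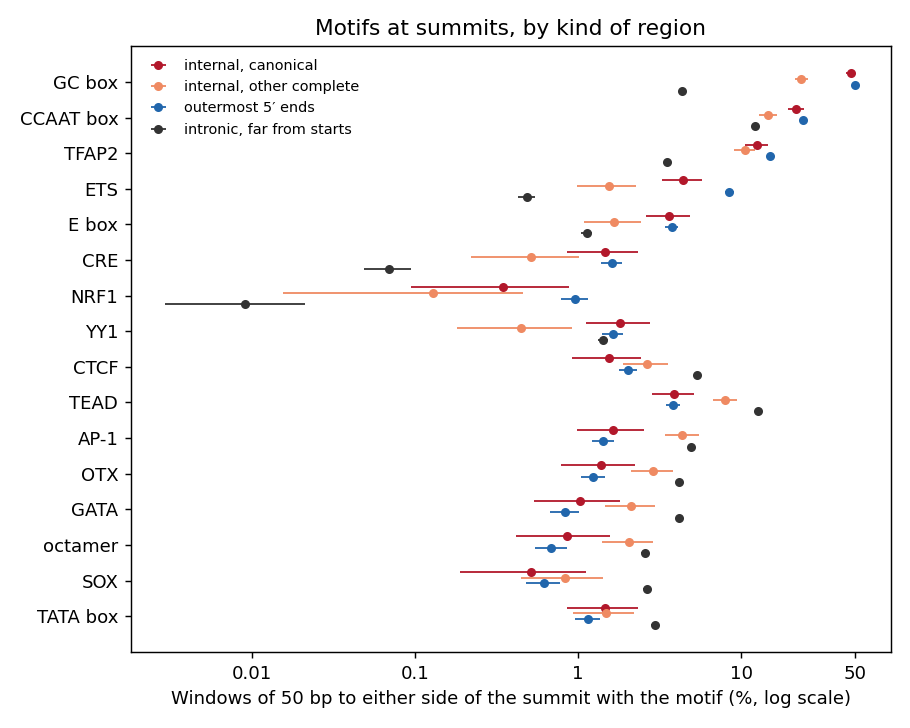
Share of 101 bp windows centred on the summit that hold each motif (horizontal axis, %, log scale), with 95% exact intervals, for members at canonical and other complete starts, for regions at outermost 5′ ends and for intronic regions far from starts; motifs run down the page. The GC box stands at 47.0% and 23.4% for the members, 49.8% for outermost and 4.35% for intronic regions.

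Members with a CCAAT box in the window had the higher median fold within both complete kinds, and so had regions at outermost 5′ ends. It was 11.8 (10.5 to 12.5) with the box and 8.84 (8.38 to 9.24) without at canonical starts, and 7.48 (6.64 to 8.47) with it and 5.74 (5.52 to 5.96) without at other complete starts. With the ETS site the median was 12.0 (10.9 to 13.7), against 9.10 (8.69 to 9.63) without, at canonical starts, and at other complete starts the intervals overlapped (6.98 with it and 5.89 without). A TATA box (TATAAA) placed 20 to 40 bases before the start was rare. It was present at 2.07% of accessible canonical internal starts and 0.533% of accessible other complete starts, against 1.21% of other complete starts without a region. For comparison, it was present at 1.63% of outermost 5′ ends with a region and 5.33% of those without.

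The outermost 5′ end was accessible in some of the genes with an accessible internal start and not in others, and the internal fold was the higher one in part of those with both. Of 6918 genes with an eligible internal start, 2301 (33.3%) had a member; 1307 had regions at an internal start and at the outermost 5′ end, 994 at an internal start only, 3174 at the outermost end only and 1443 at neither. The outermost end was thus accessible in 56.8% of genes with a member, beside 64.8% of all 6918. The 56.8% became 40.2% with a 200 bp window and 69.1% with a 1000 bp window. It became 64.9% with any summit and 48.9% with the stricter list, of regions at or above the median −log10 p. The share of all 6918 genes was not computed at these other settings. Among genes with a member, in the main setting, the share was 46.7% where the strongest internal start was canonical and 65.1% where it was not. Most of these genes, 1770, had a single member, while 384 had 2, 102 had 3, 29 had 4 and 16 had 5 or more.

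In the 1307 genes with both, the highest internal fold exceeded the outermost one in 45.1% (42.3 to 47.8%). The share was 54.6% for 485 genes whose strongest internal start was canonical and 39.4% for the other 822. The median ratio of internal to outermost fold was 1.07 (1.01 to 1.14) in the canonical and 0.825 (0.780 to 0.871) in the other set. Here too the outermost end could be the canonical start only in the other set. The largest ratios belonged to ESRRG, an orphan nuclear receptor, with 20.8 at its canonical start 414 kb inside the gene and 2.79 at the outermost end; to PCDH15, a protocadherin of inner-ear hair cells, with 21.4 at the internal start and 3.21 at the outermost end; and to SH2D3C, CLP1 and PIPOX, with 14.8, 15.3 and 11.4 at the internal start and 2.53, 2.78 and 2.12 at the outermost end. The smallest belonged to MPRIP, CABIN1, AGTR1 (an angiotensin receptor), WBP1L and DNAH9 (an axonemal dynein), with 2.60, 2.77, 3.10, 3.36 and 3.09 at the internal start and 14.0, 14.7, 15.9, 15.9 and 14.6 at the outermost end. Genes fell widely to both sides of equality, as the plot of the 2 folds shows.

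**Figure D5:**
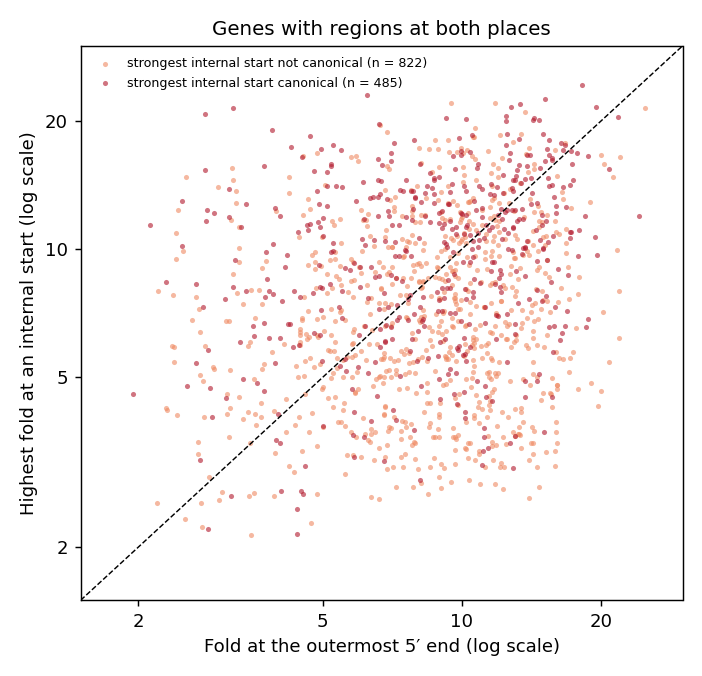
Highest fold at an internal start (vertical axis, log scale) against fold at the outermost 5′ end (horizontal axis, log scale) for the 1307 genes with regions at both; each point is 1 gene, and the dashed line marks equal fold. Points lie above the line in 54.6% of 485 genes with a canonical strongest internal start (dark) and 39.4% of the other 822 (light).

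Internal starts differ in whether they can change the protein. Of the 1557 members at other complete starts, 80.6% lay in an intron of the canonical transcript, 33.5% of them all in intron 1, and 14.7% lay upstream of the canonical start. The start codon could be compared with that of complete coding transcripts at the outermost end for 1428. It was the same in 35.2%, further downstream in 57.9%, and elsewhere in 6.86%. Counted over all distinct pairs of internal start and start codon of complete transcripts other than the canonical one, the codon was shared in 37.2% of 2580 pairs at accessible starts, against 47.0% of 5511 pairs at starts without a region.

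The 10 members of highest fold at canonical starts lay between 12.3 kb (TMEM232) and 827 kb (PCDH15) inside their genes. They were ZBBX (25.2), TMEM232 (24.3), DNAI3 (23.9), CDH18 (23.1), CCDC181 (22.5), SGO2 (21.9), MCCC1 (21.6), MAP3K13 (21.5), PCDH15 (21.4) and CFAP161 (21.0), all as deposited fold. DNAI3 encodes a dynein intermediate chain of cilia, CDH18 a cadherin, SGO2 a shugoshin that protects centromeric cohesion, and MCCC1 a subunit of a leucine-degrading carboxylase. The outermost end of DNAI3, ZBBX and CFAP161 had no region, while that of CDH18, 588 kb upstream, had 6.24 and that of SGO2, 16.2 kb upstream, had 13.3.

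Among other complete starts the 10 highest were SCN2A (23.3), OXR1 (22.1), CNTRL (22.0), CSRNP3 (21.5), TBCK (21.0), ARHGAP32 (19.5), DISP1 (19.3), ADGRB3 (18.8), INPP5B (18.7) and RABGAP1L (18.5). SCN2A encodes a neuronal voltage-gated sodium channel; the start of SCN2A-201 in intron 1, at chr2:165293571-165294426, had a higher fold than the gene's canonical start, which had 8.35. ARHGAP32 was accessible at ARHGAP32-202 in intron 11, which places the start codon further downstream. It had 4.24 at the canonical start and 6.64 at the outermost end. DISP1, needed for the release of Hedgehog proteins, was accessible at DISP1-201 in intron 1, which keeps the start codon, and had 10.7 at the outermost end. The CpG ratio was 0.122 at ARHGAP32-202, 0.128 at DISP1-201, 0.108 at the TBCK start and 0.204 at SCN2A-201, so several of the highest members lay in CpG-poor DNA.

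In textbook cases of alternative promoters, accessibility differed between the starts of 1 gene. Of 35 such genes with an eligible internal start, 25 had a member (71.4%), and 53 of their 157 internal starts were accessible (33.8%, 26.4 to 41.7%). The listed genes had a median of 3 internal starts, against 1 over all 6918 genes. For each list the share of starts, beside 22.1% over all genes, allows for this number. The share of genes, beside 33.3%, does not. Neither share allows for the kinds of start in a list, although 66.9% of canonical and 6.27% of incomplete internal starts were accessible over all genes. Shares by kind of start within the lists were not computed. DMD, which encodes dystrophin, had 14 internal starts and 5 members. Its start in intron 44, from which the brain and kidney form Dp140 is known to begin, had a fold of 14.5. The start in intron 62, that of the widely expressed short form Dp71, had 10.6, and the start in intron 55, that of the Schwann cell form Dp116, had 5.22. The start in intron 29, that of the retinal form Dp260, had no region. The canonical muscle start had 4.69, the start in intron 1 had 3.94 and the outermost end 3.20, so the short-form starts in introns 44 and 62 had the highest values of the gene.

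DNMT3A, a de novo DNA methyltransferase, had a region of 10.6 at chr2:25251159-25252941 in intron 6, the start of the short form DNMT3A2 that is known from embryonic stem cells, and 9.46 at the outermost end. CDKN2A, a tumour suppressor locus whose outermost start gives p14ARF and whose canonical internal start gives p16INK4a, had 10.4 at the internal and 5.26 at the outermost start. RUNX1, a factor of blood formation, had no region at its canonical distal start and 8.44 at RUNX1-202 in intron 3, a start of its proximal promoter. MITF, known for its melanocyte form, had 5.10 at MITF-202 and 14.2 at the outermost end, and no region at the last start, MITF-201. ESR1, the oestrogen receptor alpha, had 10.5 at its canonical start and none at the outermost end. NR3C1, the glucocorticoid receptor, whose several leaders all join the same coding exon, had 4 members with folds of 5.29, 4.50, 2.96 and 2.43, all at starts that keep the start codon. The internal starts of TP63 and of TP73, among them those in intron 3 that give the truncated ΔN forms, and that of HNF4A, a liver factor, had no region.

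Of 39 genes of the pluripotent state, 16 had an eligible internal start and 10 of these had a member, and 11 of their 26 internal starts were accessible (42.3%, 23.4 to 63.1%). EPCAM, an epithelial adhesion molecule of embryonic stem cells, had 14.6 at its canonical internal start and 17.4 at the outermost end. ESRRB, an orphan nuclear receptor of naive pluripotency in mouse, had 11.5 at ESRRB-208, and LIN28B, an inhibitor of let-7 maturation, had 6.28; neither had a region at the outermost end. OTX2, a factor of primed pluripotency in mouse and of head development, had 8.09 at OTX2-202 and no region at its canonical start. The internal start of DNMT3B had 5.05, against 6.64 at its outermost end. The internal fold was higher in ETV4 and JADE1 (7.97 and 7.14 inside, 3.41 and 5.45 at the outermost end). It was lower in VRTN, USP44 and ZNF398 (5.10, 5.09 and 4.02 inside, 14.7, 7.21 and 10.2 at the outermost end). POU5F1, ZFP42, NODAL, LEFTY1, FGFR1 and TCF3 had an eligible internal start and no member.

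Regulators of cyclic nucleotides and small GTPases, many of which have long and short isoforms, had a member in 26 of 33 genes, and 55 of their 128 internal starts were accessible (43.0%, 34.3 to 52.0%). PDE4D, a cyclic AMP phosphodiesterase, had 6 members and no region at its outermost end. Its canonical start had a fold of 13.5, and PDE4D-210, PDE4D-216 and PDE4D-207 in intron 1 had 12.6, 12.1 and 10.5. PDE4D-202 and PDE4D-227 had 3.67 and 3.51, and the starts of PDE4D-222 and PDE4D-205 had no region. RGS3, a regulator of G protein signalling, had 20.1 at its canonical start and 13.5, 9.50 and 8.24 at 3 further starts. TIAM2, a Rac exchange factor, reached 17.4 in intron 7, against 10.9 at its canonical start. PDE11A had 17.0 at its canonical start. ARHGAP26 had 15.9 in exon 13, at the start of ARHGAP26-209, a transcript tagged as incomplete at the 5′ end.

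Neuronal and adhesion genes had a member in 26 of 35 genes and at 50 of 152 starts (32.9%), although H1 cells are not neurons. PCDH15 (21.4), RBFOX2, a splicing factor (18.4), FGF12 (17.3) and ANK2 (16.8) were highest. DLG2, a synaptic scaffold, had 6 members, the highest 16.7, against 20.0 at its outermost end, and NRXN3, a neurexin, had 12.9 at its start in intron 15, against 18.9. Cytoskeletal linkers had a member in 25 of 37 genes and at 56 of 190 starts (29.5%), led by CALD1 (17.3), SYNE1 (16.9), DST (15.3) and TTN (14.2). In SYNE1 the region lay in intron 91 and in DST in intron 61, at starts of shorter transcripts of these long genes. Transcription factors with isoforms had a member in 32 of 52 genes and at 57 of 167 starts (34.1%), led by ESRRG (20.8), FOXP1 (14.7), SOX6 (14.5) and TCF12 (13.2). The highest members of FOXP1 and TCF12 lay in introns 4 and 8. Genes without a member despite an eligible start included CADM2, CTNNA2 and GRIN2A among neuronal genes, AFAP1, CAMSAP2 and EPB41L2 among linkers, ARHGAP10, ARHGEF10L and PRKCE among GTPase regulators, and BCL11A, CTBP1 and CUX1 among transcription factors.

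The gene with the most members was TCF4, a basic helix-loop-helix factor, with 8 and with 6 of its 15 merged internal starts accessible; SMARCA2, an ATPase of the SWI/SNF remodeller, and RUNX1T1 had 7, and DLG2, FOXP1, FRMD4A, PDE4D and PLEC had 6. A further 8 genes, DMD among them, tied at 5, of which ABR and ANK2 come first by symbol. In TCF4 the folds reached 9.97 in intron 8, against 6.70 at the canonical start. In SMARCA2 the highest value, 10.2, lay in intron 27 near the start of a short form, against 7.15 at the canonical start; the outermost end had no region. In ANK2, an ankyrin, 4 of the 5 members had folds of 16.8, 15.4, 13.7 and 11.5, and the other had 6.29.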

How the data were processed

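Both H1 libraries share 1 deposited narrowPeak list. Its coordinates are on GRCh38, per the submitters' processing notes; aligner, caller and settings were "not given in the sources used here", and the labels name the list only as an optimal set from an overlap. The layout gives, as deposited by the authors, a score, a fold (ratio of signal at the summit), −log10 p and −log10 q values and a summit position. The fold was used to rank regions and the −log10 p in an alternative; the score and −log10 q were not used. Fold depends on the caller and its background, which were not stated, and a start in a closed or unmappable place is listed nowhere.

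From these, each region was represented by its summit of highest fold and matched to GENCODE 44 starts on hg38 (Python 3.11.15, pandas 2.3.3, pysam 0.24.0, scipy 1.17.1); chrM and the duplicated part of Y were left out. The distance to other genes was measured from the start, for genes of all types. Shares carry 95% exact Clopper-Pearson intervals and medians exact order-statistic intervals. With no value per library, no test over samples was possible. The matching was checked on simulated data. No member aligned to mitochondrial DNA (0 of 3046, blastn 2.17.0, E-value limit 1e-05).

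The members, motifs and gene lists were chosen with earlier results of these data known. Named genes are the 10 members of highest fold at canonical and at other complete starts, the 5 genes of highest and of lowest internal to outermost ratio, the 10 genes with most members, the 4 highest and the first 3 without a member of each list, and any gene of the textbook and pluripotency lists. SCN2A, ARHGAP32 and DISP1 values beyond these, the CpG limit of 0.6, CpG quintiles, distance and transcript-number bins, start codons, the TATA position and the mitochondrial check were chosen after the files had been opened. Alternatives were other windows, distances, summits, transcript sets and a stricter region list.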

Additional observations from a re-analysis of the deposited data

How the results depend on the processing

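The 7 summary values below were recomputed under 11 alternatives, motif shares under 3, and shares by kind of start under 4 chosen after seeing the data; CpG quintiles, distances, transcript counts, start codons, the placed TATA box, widths and gene lists were not recomputed. With no values per library, no replicate could be left out. No paired analysis was possible because the 2 libraries form 1 group and share 1 list. The cause of the shifts was not tested, beyond what each alternative's construction shows. The 2 counts of motifs stayed within 1.5 times of 7 and 8, and 22 of 48 recomputed single-motif shares moved beyond their interval. The number of members, 3046, moved by over 1.5 times only with transcripts of every type (4911).

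Share of internal starts accessible (22.1%): 16.6% with a 200 bp and 28.4% with a 1000 bp window, 24.3% with any summit, 35.9% with basic and 31.9% with complete transcripts, 12.5% with every type, 23.5% with protein-coding neighbours only and 16.2% with regions at or above the median −log10 p. By kind of start, canonical starts (66.9%) had 58.5% with 200 bp, 71.9% with 1000 bp, 70.1% with any summit and 58.9% with the stricter list. Other complete starts (22.7%) had 16.3%, 31.2%, 25.9% and 14.9% in the same order. Incomplete starts (6.27%) had 2.96% with 200 bp, 10.0% with 1000 bp and 3.44% stricter. Share at canonical starts (38.1%): 41.5% with 200 bp, 35.2% with 1000 bp, 49.9% basic, 42.7% complete, 23.6% every type, 40.2% protein-coding neighbours, 46.6% with the stricter list, and 36.2% and 32.7% beyond 10 and 20 kb. Share of member genes with an accessible outermost end (56.8%): 40.2% with 200 bp, 69.1% with 1000 bp, 64.9% with any summit, 53.9% basic, 62.3% every type, 59.1% beyond 20 kb and 48.9% with the stricter list. Share of genes with the higher internal fold (45.1%): 48.5% with any summit, 40.01% with every type and 49.4% with the stricter list. Median fold (6.99): 7.63 with 200 bp, 6.39 with 1000 bp, 6.68 with any summit, 7.54 basic, 7.25 complete, 6.30 every type and 8.73 stricter. Median CpG ratio (0.507): 0.610 with 200 bp, 0.422 with 1000 bp, 0.635 basic, 0.571 complete, 0.370 every type, 0.562 protein-coding neighbours, 0.477 and 0.427 beyond 10 and 20 kb, and 0.654 stricter. The depth behind the list is unknown, so a start without a region was not detected rather than shown to be closed. Such a start could also lie near a weaker summit of a region, since only the strongest summit was matched.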

Other observations

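The X box (ATGGNAAC), a site of the RFX factors, was searched after the values had been seen. It was found at 1.47% (0.856 to 2.34%) of members at canonical starts and 3.02% (2.23 to 3.99%) of members at other complete starts, against 1.45% (1.24 to 1.68%) of regions at outermost 5′ ends and 2.07% (1.95 to 2.19%) of intronic regions far from starts. The interval of the canonical members overlapped those of outermost 5′ ends and introns, and the interval of the other complete members lay just above that of introns.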
